A study of Mus musculus with 21 samples.

Results

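The keratins described here are the 6 genes Krt7, Krt8, Krt18, Krt19, Krt20 and Krt23, whose proteins form the intermediate filaments of single-layered epithelia. They were chosen by name: every probe set annotated to a single one of these genes was taken, which gave 8 of 45037 probe sets on Affymetrix whole-genome mouse arrays and 6 of 18193 named genes. Krt19 has a particular place in the study because its promoter (K19) drives the transgenes. Krt8 had 3 probe sets and the other genes had a single probe set each, and the probe set with the highest mean signal stands for a gene.

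Expression was profiled in the glandular stomach of 21 mice, each on an array of its own, and signals are log2 of the RMA intensity (background-corrected, quantile-normalized and summarised per probe set). The genotypes were wild-type (n = 3), K19-Wnt1 (n = 5), which overexpresses the ligand Wnt1, K19-Nog (n = 2), which overexpresses the BMP antagonist noggin, K19-C2mE (n = 3), which overexpresses COX-2 (Ptgs2) together with mPGES-1 (Ptges) and so activates the prostaglandin E2 pathway, and the compound genotypes K19-Nog/C2mE (n = 3) and K19-Wnt1/C2mE (n = 5), which carry both of the transgenes they are named for. The labels give the strain of every mouse as C57BL/6 and the sex as female, with ages from 18 to 65 weeks that are not given per mouse. Transgene expression follows K19 promoter activity in gastric epithelium, so it is limited to cells in which that promoter works, and the 3 genotypes with C2mE are those described as tumor models, with hyperplastic, dysplastic or hamartoma-like lesions. Mice are named by their label numbers, which are 1, 2, 4, 5 and 6 in K19-Wnt1, and values are given in that order.

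Keratin filaments are built from pairs of an acidic type I and a basic type II protein. Krt8 (type II) and Krt18 (type I) are the founding pair of simple epithelia, Krt7 is a type II partner found in ducts and in many glandular epithelia, and Krt19 and Krt20 are type I partners, of which Krt20 marks surface cells of the stomach and differentiated cells of the intestine. Krt23 is a less studied type I keratin. Stratified epithelia such as the mouse forestomach, which borders on the glandular stomach, use other keratins (Krt5 with Krt14 in the basal layer, Krt4 with Krt13 above it).

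The genes lie in the keratin clusters of the mouse genome (RefSeq annotation, assembly GRCm38.p6). Krt7 (chr15:101412403-101427806), Krt8 (chr15:101996711-102004342) and Krt18 (chr15:102028216-102032026) lie on chromosome 15, with 23.87 kb between Krt8 and Krt18, whereas Krt20 (chr11:99428385-99438153), Krt23 (chr11:99477973-99493120) and Krt19 (chr11:100140810-100145926) lie on chromosome 11, with 39.82 kb between Krt20 and Krt23. RefSeq promoter windows were found for 5 of 6 genes. The 250 bases before the annotated start are printed 5′ to 3′ for Krt7, Krt20 and Krt18, the keratins that rose in every C2mE genotype, and for Krt23, which passed the test in none of them against wild-type, with motif matches on either strand in capitals.
Krt7, chr15:101412153-101412402, plus strand: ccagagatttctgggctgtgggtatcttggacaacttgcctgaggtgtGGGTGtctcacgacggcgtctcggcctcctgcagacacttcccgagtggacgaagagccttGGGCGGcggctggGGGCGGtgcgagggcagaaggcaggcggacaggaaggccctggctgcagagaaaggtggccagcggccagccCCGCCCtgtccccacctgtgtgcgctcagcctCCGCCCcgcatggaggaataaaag
Krt20, chr11:99438154-99438403, minus strand: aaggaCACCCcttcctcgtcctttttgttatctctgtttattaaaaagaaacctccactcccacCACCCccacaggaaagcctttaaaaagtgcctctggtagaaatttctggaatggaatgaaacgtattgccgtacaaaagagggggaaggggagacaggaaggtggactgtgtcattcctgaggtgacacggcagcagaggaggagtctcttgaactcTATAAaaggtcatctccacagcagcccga
Krt18, chr15:102027966-102028215, plus strand: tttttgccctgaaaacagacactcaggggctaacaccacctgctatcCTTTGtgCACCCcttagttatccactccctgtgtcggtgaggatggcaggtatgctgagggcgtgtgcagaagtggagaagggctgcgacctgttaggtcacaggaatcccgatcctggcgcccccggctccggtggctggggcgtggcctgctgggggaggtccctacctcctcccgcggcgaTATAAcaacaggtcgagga
Krt23, chr11:99493121-99493370, minus strand: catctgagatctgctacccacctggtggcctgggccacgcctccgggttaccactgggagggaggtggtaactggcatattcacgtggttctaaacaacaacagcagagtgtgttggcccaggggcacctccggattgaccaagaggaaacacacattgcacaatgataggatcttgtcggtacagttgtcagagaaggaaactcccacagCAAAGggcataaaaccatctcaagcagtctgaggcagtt
The motifs searched on both strands were TATAA (the core of the TATA box), GGGCGG (the GC box), CACCC (the core of Krüppel-like factor motifs), TGANTCA (the AP-1 motif) and CTTTG (the core of Tcf motifs), and no matches overlapped. Krt7 held 4 GGGCGG matches, the nearest at 24 bases before the start, and 32.7% of all 32817 mouse windows of this length held at least 1. Krt20 held TATAA at 29 bases and Krt18 at 19 bases before the start (22.8% of windows), and neither Krt7, Krt8 nor Krt23 held these letters. CACCC was matched in Krt7, Krt8, Krt18 and Krt20 (52% of windows), CTTTG in Krt18 and Krt23 (48.6%), and TGANTCA in none of the 5 (6.75%). No motif was shared by Krt7, Krt18 and Krt20 other than CACCC, and such matches are descriptions of the letters only.

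Facts on the arrays that bear on all comparisons come first. Array medians lay between 65.96 and 68.76 on the linear scale, and arrays of 1 genotype correlated at 0.983 to 0.996 over all probe sets. Y-linked genes were high in 9 of the 21 arrays although every mouse is labelled female: 4 of the 5 K19-Wnt1 mice, 2 of the 3 in wild-type and in K19-C2mE, 1 of the 5 K19-Wnt1/C2mE mice and no mouse with Nog, so keratin results are also given without these arrays. Of the transgene genes, Ptgs2 rose from 7.06 ± 0.32 (SD, n = 3) in wild-type to 9.33 ± 0.42 in K19-C2mE, 9.82 ± 0.40 in K19-Wnt1/C2mE and 9.70 ± 0.11 in K19-Nog/C2mE, whereas Ptges, Wnt1 and Nog passed the test in no genotype against wild-type, and whether their probe sets lie in the constructs is not known. Only the brightest probe set of each gene was read here, and the authors report higher expression of the introduced genes in their transgenic mice. Fewer cells of a type and less RNA per cell cannot be told apart in such bulk samples. No source says that mice of a genotype came from separate litters.

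The 3 genotypes with C2mE shared a rise of Krt7, Krt20 and Krt18. Krt8 and Krt19 rose slightly in K19-C2mE and K19-Nog/C2mE and did not pass the test in K19-Wnt1/C2mE. Krt23 did not pass in any of them against wild-type, and none of the 6 keratins passed in K19-Wnt1 or K19-Nog. Against wild-type, 5 of 6 keratins rose in K19-C2mE, where 14.3% of all named genes rose, 3 of 6 rose in K19-Wnt1/C2mE (20.5% of named genes) and 5 of 6 rose in K19-Nog/C2mE (15.6%). No keratin fell, where 12.6%, 21.7% and 16.2% of named genes did. A call is an adjusted p under 0.05 in limma. The median change of the 6 keratins was 0.48, 0.60 and 0.48 on the log2 scale in that order, beside -0.02, -0.04 and -0.02 for all named genes. These comparisons share the 3 wild-type arrays. Over the matching genotype without C2mE, 4 of 6 rose in K19-Wnt1/C2mE (22.4% of named genes) and 5 of 6 in K19-Nog/C2mE (13%). Arrays did not overlap with wild-type for 6 keratins in K19-C2mE, 4 in K19-Wnt1/C2mE and 6 in K19-Nog/C2mE, for 1 in K19-Wnt1 and for 3 in K19-Nog. The shares of all named genes without overlap were 49%, 42.2%, 49.2%, 6.44% and 43%, so a gap between arrays was common with groups this small.

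**Figure D1:**
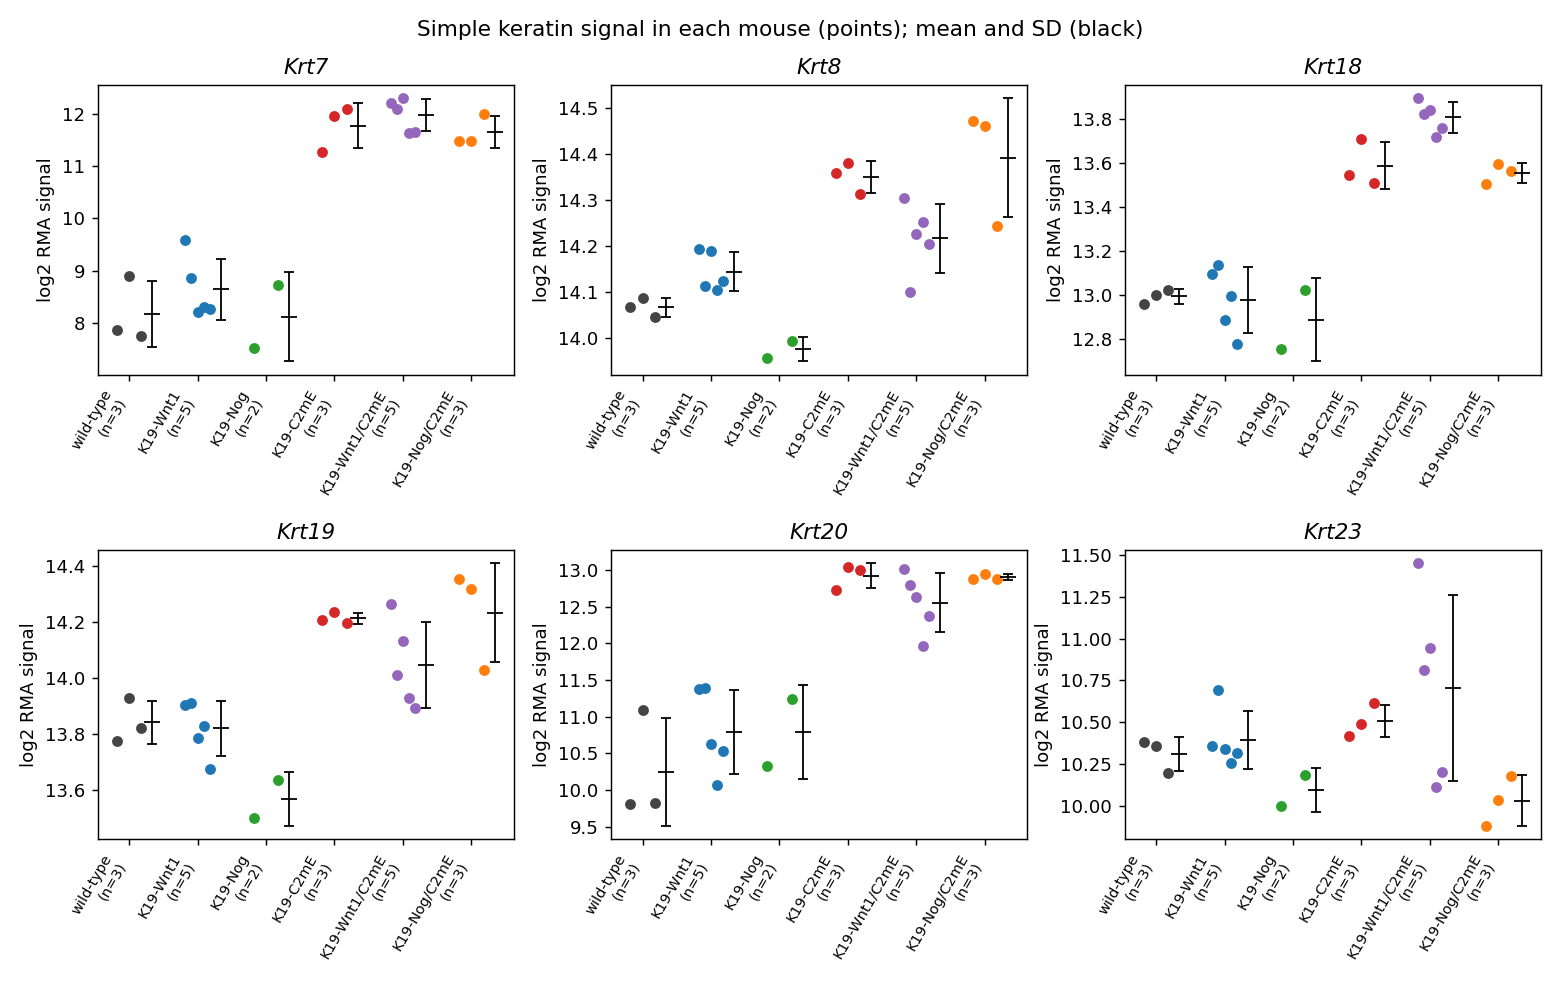
Signal of each of the 6 keratins (log2 RMA signal, y axis, a scale of its own in each panel) in every mouse (points) by genotype, with mean and SD in black. Krt7 lies between 7.51 and 9.58 in the genotypes without C2mE and between 11.28 and 12.31 in those with it, whereas Krt23 shows no such split.

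Krt7 (probe set 1423952_a_at) had the largest fitted change of the 6 in each C2mE genotype against wild-type, although differences between genes were not tested. Its log2 signal was 7.86, 8.90 and 7.73 in the wild-type mice. It was 11.28, 11.96 and 12.10 in K19-C2mE and 12.22, 12.10, 12.31, 11.64 and 11.66 in K19-Wnt1/C2mE. The K19-Nog/C2mE mice had 11.48, 11.48 and 12.01. All 11 arrays with C2mE were above all 10 arrays without it. The share of named genes with such a split, also seen below in Krt20 and Krt18, was not counted. The rise over wild-type was 12.3-fold in K19-C2mE (log2 3.62, SE 0.37, limma adjusted p = 1.03e-06), 14.1-fold in K19-Wnt1/C2mE (3.82, SE 0.33, adjusted p = 4.29e-08) and 11.3-fold in K19-Nog/C2mE (3.49, SE 0.37, adjusted p = 1.02e-06). Only 77, 46 and 34 of the 18193 named genes had a larger rise in these comparisons. Among the 3 C2mE genotypes, Krt7 did not differ beyond its spread: K19-Nog/C2mE minus K19-C2mE was -0.12 (95% interval -0.91 to 0.66) and K19-Wnt1/C2mE minus K19-C2mE was 0.20 (-0.50 to 0.90). In the order of genotype means, from K19-Wnt1/C2mE at 11.99 down to K19-Nog at 8.12, the only step between neighbours beyond their summed SDs was that of 3.02 from K19-Nog/C2mE to K19-Wnt1.

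In the mice without C2mE, Krt7 was 9.58, 8.85, 8.21, 8.31 and 8.25 in K19-Wnt1 and 7.51 and 8.72 in K19-Nog. These ranges overlap with wild-type, and the changes of 0.48 (SE 0.33, limma adjusted p = 0.836) and -0.05 (SE 0.42, adjusted p = 0.972) did not pass. The single mice vary over more than a log2 unit here: wild-type mouse 2, K19-Wnt1 mouse 1 and K19-Nog mouse 2 were the highest of their genotypes. Against the matching genotype without C2mE, K19-Wnt1/C2mE mice had Krt7 higher by 3.34 (SE 0.29, limma adjusted p = 2.47e-08) and K19-Nog/C2mE mice by 3.54 (SE 0.42, adjusted p = 4.43e-06). The latter was 2.93 without K19-Nog mouse 1 and 4.15 without K19-Nog mouse 2, each time past the threshold.

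Krt20 (probe set 1426284_at) also rose in all 3 C2mE genotypes. It measured 9.81, 11.09 and 9.82 in wild-type mice, 12.73, 13.04 and 13.01 in K19-C2mE and 12.88, 12.95 and 12.88 in K19-Nog/C2mE. In K19-Wnt1/C2mE it was 13.01, 12.80, 12.63, 11.97 and 12.37. Every array with C2mE was above every array without it, and the 3 K19-Nog/C2mE mice lay within 0.07 of each other. The rise over wild-type was 6.42-fold in K19-C2mE (log2 2.68, SE 0.36, limma adjusted p = 1.85e-05), 4.96-fold in K19-Wnt1/C2mE (2.31, SE 0.32, adjusted p = 1.26e-05) and 6.32-fold in K19-Nog/C2mE (2.66, SE 0.36, adjusted p = 1.49e-05). In these comparisons 0.863%, 1.02% and 0.456% of named genes rose further. Among genotype means the step of 1.76 from K19-Wnt1/C2mE to K19-Wnt1 was likewise the only one beyond the summed SDs of neighbours.

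K19-Wnt1 mice had Krt20 at 11.37, 11.39, 10.62, 10.07 and 10.53, and K19-Nog mice at 10.33 and 11.24. Both ranges overlap with wild-type, and neither the change of 0.55 in K19-Wnt1 (SE 0.32, limma adjusted p = 0.789) nor that of 0.55 in K19-Nog (SE 0.40, adjusted p = 0.507) passed. A high rank was not limited to C2mE: in K19-Wnt1 0.429% of named genes rose further than Krt20 and 0.638% further than Krt7. The shares in K19-Nog were 3.77% and 52.6%. C2mE on the Wnt1 background raised Krt20 by 1.76 (SE 0.28, limma adjusted p = 4.46e-05), against 2.68 on the wild-type background. The interaction of Wnt1 with C2mE was -0.92 (95% interval -1.87 to 0.02, adjusted p = 0.444), so these sizes were not shown to differ. On the Nog background the rise was 2.12 (SE 0.40, adjusted p = 0.000635).

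Wild-type mouse 2 stood apart in both genes: it had the highest Krt7 (8.90) and Krt20 (11.09) of its genotype, and it also had the highest squamous marker level and was the only wild-type array with low Y-linked signal. Leaving it out gave larger changes (Krt7 3.98 and Krt20 3.11 in K19-C2mE, then 4.19 with 2.74 in K19-Wnt1/C2mE and 3.86 with 3.09 in K19-Nog/C2mE). Leaving out the 9 arrays with high Y-linked signal keeps that mouse as the only wild-type array. Krt7 then rose by 3.17 in K19-Wnt1/C2mE (limma adjusted p = 0.00189) and 2.76 in the Nog/C2mE mice (adjusted p = 0.0058), and Krt20 by 1.51 (adjusted p = 0.0369) and 1.81 (adjusted p = 0.0267). In K19-C2mE, with 1 array on each side, the differences were 2.39 for Krt7 (adjusted p = 0.0842) and 1.63 for Krt20 (adjusted p = 0.197), which did not pass. The lone arrays are assumed there to vary like the other genotypes.

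**Figure D2:**
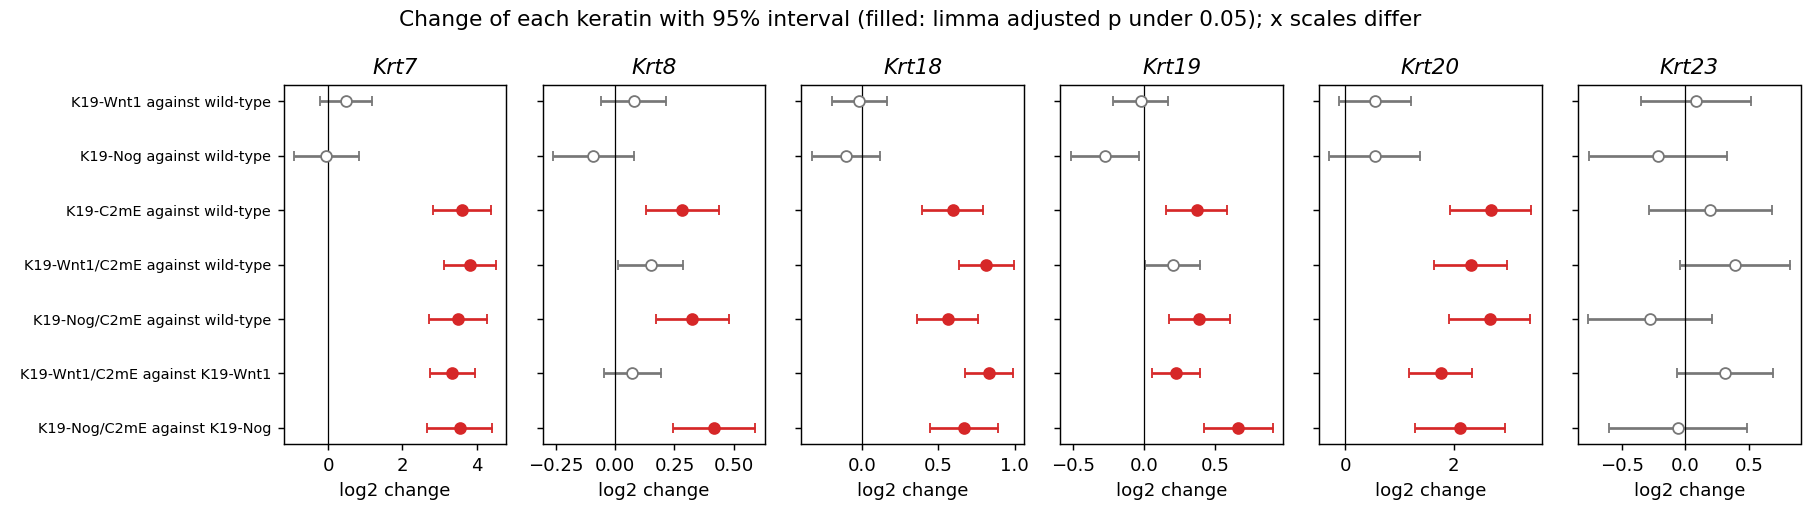
Change of each keratin (log2, x axis, a scale of its own in each panel) in 7 comparisons (y axis), with the 95% interval; filled red points passed the test at an adjusted p under 0.05. Krt7, Krt18 and Krt20 are filled in all 5 comparisons that add C2mE, Krt8 in 3, Krt19 in 4 and Krt23 in none.

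Krt8 and Krt18, the filament pair of simple epithelia, passed the test in different numbers of C2mE genotypes, Krt18 in all 3 and Krt8 in 2 of them. Whether the pair differed from each other was not tested. Krt18 (probe set 1448169_at) was 12.96, 13.00 and 13.02 in wild-type mice. It was 13.55, 13.71 and 13.51 in K19-C2mE, 13.50, 13.60 and 13.56 in K19-Nog/C2mE and 13.90, 13.82, 13.84, 13.72 and 13.76 in K19-Wnt1/C2mE. All arrays with C2mE exceeded all arrays without it, and the K19-Wnt1/C2mE arrays exceeded those of the other 2 C2mE genotypes. The rise over wild-type was 1.51-fold in K19-C2mE (log2 0.60, SE 0.10, limma adjusted p = 0.000146), 1.76-fold in K19-Wnt1/C2mE (0.81, SE 0.09, adjusted p = 4.31e-07) and 1.47-fold in K19-Nog/C2mE (0.56, SE 0.10, adjusted p = 0.000191). The higher level in K19-Wnt1/C2mE did not pass the test: it was 0.22 above K19-C2mE (95% interval 0.04 to 0.40, adjusted p = 0.154) and 0.25 above K19-Nog/C2mE (0.08 to 0.43, adjusted p = 0.0532). The latter lay close to the threshold and passed without dim probe sets (adjusted p = 0.0337), with a variance trend (0.0293), with the mean of each gene's probe sets (0.0443) and without K19-Wnt1/C2mE mouse 4 (0.0458).

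In K19-Wnt1 mice Krt18 ranged from 12.78 to 13.14 and in K19-Nog mice it was 12.75 and 13.02, around the wild-type level, with changes of -0.02 (limma adjusted p = 0.992) and -0.11 (adjusted p = 0.664). Against these backgrounds C2mE raised it by 0.83 (SE 0.07, limma adjusted p = 3.57e-08) and 0.67 (SE 0.11, adjusted p = 0.00013). Without the arrays with high Y-linked signal its change over wild-type was 0.55 in K19-C2mE (adjusted p = 0.22), 0.82 in K19-Wnt1/C2mE (0.00569) and 0.56 in K19-Nog/C2mE (0.0435), sizes close to those over all arrays.

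Krt8 (probe set 1420647_a_at) moved within a narrow range. It was 14.07, 14.09 and 14.04 in wild-type, 14.36, 14.38 and 14.31 in K19-C2mE and 14.47, 14.46 and 14.24 in K19-Nog/C2mE. In K19-Wnt1/C2mE it was 14.30, 14.10, 14.22, 14.25 and 14.20. All of these exceeded wild-type. The changes were 1.22-fold in K19-C2mE (log2 0.28, SE 0.07, limma adjusted p = 0.00861) and 1.25-fold in K19-Nog/C2mE (0.33, SE 0.07, adjusted p = 0.00236). For K19-Wnt1/C2mE the difference of 0.15 (SE 0.07, 95% interval 0.01 to 0.29) missed the threshold at an adjusted p of 0.0812, and it passed at 0.0431 without K19-Wnt1/C2mE mouse 2, at 0.0322 with a variance trend and at 0.048 with the mean of its probe sets.

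The other probe sets of Krt8 gave the same calls. In K19-C2mE they measured 0.28 (limma adjusted p = 0.0199) and 0.24 (0.0306), in K19-Nog/C2mE 0.31 (0.00832) and 0.27 (0.0124), and in K19-Wnt1/C2mE 0.17 (0.0803) and 0.15 (0.0965). By probe set 1420647_a_at, Krt8 in K19-Wnt1 (14.10 to 14.19) lay above all wild-type arrays and in K19-Nog (13.96 and 13.99) below them. The changes of 0.08 (adjusted p = 0.868) and -0.09 (adjusted p = 0.611) did not pass, and 6.44% and 43% of named genes had arrays that do not overlap in these comparisons. Probe sets 1423691_x_at and 1435989_x_at overlapped with wild-type in K19-Wnt1, and the latter also did in K19-Wnt1/C2mE. Krt8 rose by 0.42 in K19-Nog/C2mE over K19-Nog (SE 0.08, limma adjusted p = 0.000954), a call that was lost when only the genotypes compared were fitted (SE 0.11, adjusted p = 0.0567). It differed by 0.07 (SE 0.06, adjusted p = 0.341) between K19-Wnt1/C2mE and K19-Wnt1.

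Krt19 (probe set 1417156_at), the gene whose promoter was used for the transgenes, was high in every genotype and rose slightly with C2mE. Its signal was 13.77, 13.93 and 13.82 in wild-type mice. It was 14.21, 14.23 and 14.20 in K19-C2mE, 14.35, 14.32 and 14.03 in K19-Nog/C2mE and 14.26, 14.01, 14.13, 13.93 and 13.89 in K19-Wnt1/C2mE. The K19-C2mE and K19-Nog/C2mE arrays were all above wild-type, whereas 2 of the 5 K19-Wnt1/C2mE arrays lay within or at the edge of the wild-type range. The rise was 1.29-fold in K19-C2mE (log2 0.37, SE 0.10, limma adjusted p = 0.0136) and 1.31-fold in K19-Nog/C2mE (0.39, SE 0.10, adjusted p = 0.00737), and the difference of 0.20 in K19-Wnt1/C2mE (SE 0.09, 95% interval 0.01 to 0.40) had an adjusted p of 0.0904. The call in K19-C2mE was lost without wild-type mouse 1 (adjusted p = 0.0583).

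In the genotypes without C2mE, Krt19 was 13.90, 13.91, 13.78, 13.83 and 13.67 in K19-Wnt1 (change -0.02, SE 0.09, limma adjusted p = 0.99). It was 13.50 and 13.64 in K19-Nog, the lowest level of any genotype and below all wild-type arrays, but the change of -0.27 (SE 0.12) had an adjusted p of 0.2. From this lower level the rise in K19-Nog/C2mE over K19-Nog was 0.67 (SE 0.12, adjusted p = 0.000289), and the interaction of Nog with C2mE was 0.29 (95% interval -0.03 to 0.62, adjusted p = 0.654). Over K19-Wnt1, the K19-Wnt1/C2mE arrays were 0.23 higher (SE 0.08, adjusted p = 0.0321) with overlapping values, and this call was lost when any of K19-Wnt1 mice 4 and 6 or K19-Wnt1/C2mE mice 1 and 3 was left out (adjusted p up to 0.0993). Without the arrays with high Y-linked signal no change of Krt19 or Krt8 over wild-type passed (Krt19 differed by 0.28 in K19-C2mE mice at an adjusted p of 0.722, and by 0.31 in K19-Nog/C2mE mice at 0.346).

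The signals of Krt8 and Krt19 were near the top of the scale in every array, where the highest signal of any probe set was 15.29, and how far so bright a signal can still rise on these arrays was not tested. In the order of Krt19 means (K19-Nog/C2mE, K19-C2mE, K19-Wnt1/C2mE, wild-type, K19-Wnt1, K19-Nog) every pair of neighbours overlapped except K19-Wnt1 and K19-Nog, which lay 0.25 apart. Krt19 thus differed by little between genotypes, and the activity of the transgenic promoter itself was not measured.

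Krt23 (probe set 1418213_at) passed the test in no genotype against wild-type. Its signal was 10.38, 10.36 and 10.20 in wild-type, 10.42, 10.49 and 10.61 in K19-C2mE and 9.88, 10.04 and 10.18 in K19-Nog/C2mE. No array of either genotype fell within the wild-type range, the former above and the latter below it, but the changes of 0.20 in K19-C2mE (SE 0.23, limma adjusted p = 0.605) and -0.28 in K19-Nog/C2mE (SE 0.23, adjusted p = 0.4) did not pass. In K19-Wnt1/C2mE it ranged widely, with 11.45, 10.81 and 10.95 in mice 1, 2 and 3 and 10.11 and 10.20 in mice 4 and 5, so that its arrays lay on both sides of the wild-type range (change 0.39, SE 0.21, adjusted p = 0.151). K19-Wnt1/C2mE exceeded K19-Nog/C2mE by 0.67 (SE 0.21, adjusted p = 0.0358). It was the only keratin called in that comparison, where 7.93% of named genes were higher. The call was lost when any of K19-Wnt1/C2mE mice 1, 2 and 3 or K19-Nog/C2mE mice 1 and 2 was left out (adjusted p up to 0.149). Without K19-Wnt1/C2mE mouse 4, Krt23 passed against wild-type (adjusted p = 0.034) and against K19-Wnt1 (adjusted p = 0.038).

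The 2 low K19-Wnt1/C2mE mice for Krt23 were also the lowest of their genotype for Krt7, Krt18, Krt19 and Krt20, but not for Krt8. The spread among these 5 mice was 1.34 for Krt23, 1.04 for Krt20 and 0.67 for Krt7, against 0.18 for Krt18 on the log2 scale. This is a description of 5 mice. Mice 4 and 5 are labelled like the others, but mouse 5 was the only 1 of the 5 with high Y-linked signal.

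Comparisons among the C2mE genotypes and the interaction terms gave few calls. Neither K19-Wnt1/C2mE nor K19-Nog/C2mE differed from K19-C2mE in any of the 6 keratins by limma (7.06% and 3.35% of named genes did), with 1 and 0 keratins at an unadjusted p under 0.05. Arrays did not overlap for 2 and 1 keratins there (11.9% and 18.1% of named genes), and between the compound genotypes for 1, Krt18 (14%). Interactions of Wnt1 or Nog with C2mE passed for 0 of 6 keratins, with 1 and 0 at an unadjusted p under 0.05, and for 0.973% and 1.12% of named genes. For Wnt1 alone and Nog alone, 0 of 6 keratins passed, 0 and 1 at an unadjusted p under 0.05, and 0.011% and 3.87% of named genes passed. The methods' t-test without adjustment, which assumes equal variances, called 1 and 2 in these last comparisons and 2 and 1 in the comparisons with K19-C2mE.

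The forestomach borders on the dissected tissue, so its markers were set beside the simple keratins. The median log2 signal of 13 squamous genes that are not keratins (involucrin, Sprr genes, Trp63 and others) was 5.68, 7.64 and 5.87 in the wild-type mice. It was 8.72 to 11.54 in K19-C2mE, 5.79, 9.92, 8.51, 6.31 and 7.22 in K19-Wnt1/C2mE mice 1 to 5 and 5.80 to 5.98 in K19-Nog/C2mE. Of the 13 genes, 11 rose over wild-type in K19-C2mE, 4 in K19-Wnt1/C2mE and 2 in K19-Nog/C2mE (Ivl 3.32 and Ly6d 3.56). The shares of named genes that rose were 14.3%, 20.5% and 15.6%. K19-Nog/C2mE thus combined a squamous level within the wild-type range with Krt7 at 11.48 to 12.01 and Krt20 at 12.88 to 12.95, and K19-Wnt1/C2mE mouse 1 had a squamous level of 5.79 with Krt7 at 12.22 and Krt20 at 13.01.

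With the squamous level as a covariate, K19-C2mE mice had Krt7 higher by 3.20 (limma adjusted p = 0.000917) and Krt20 by 2.23 (adjusted p = 0.00952). The call on Krt19 was lost at nearly the same size (0.38, adjusted p = 0.135). Squamous levels of K19-C2mE (8.72 to 11.54) and wild-type (5.68 to 7.64) do not overlap, so this fit cannot tell genotype and squamous tissue apart there. Leaving out all arrays with a squamous level above 8, which removes every K19-C2mE array and K19-Wnt1/C2mE mice 2 and 3, left Krt7 at 3.68 and 3.49, Krt20 at 2.21 and 2.66 and Krt18 at 0.80 and 0.56 in K19-Wnt1/C2mE and K19-Nog/C2mE, and each of these passed.

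**Figure D3:**
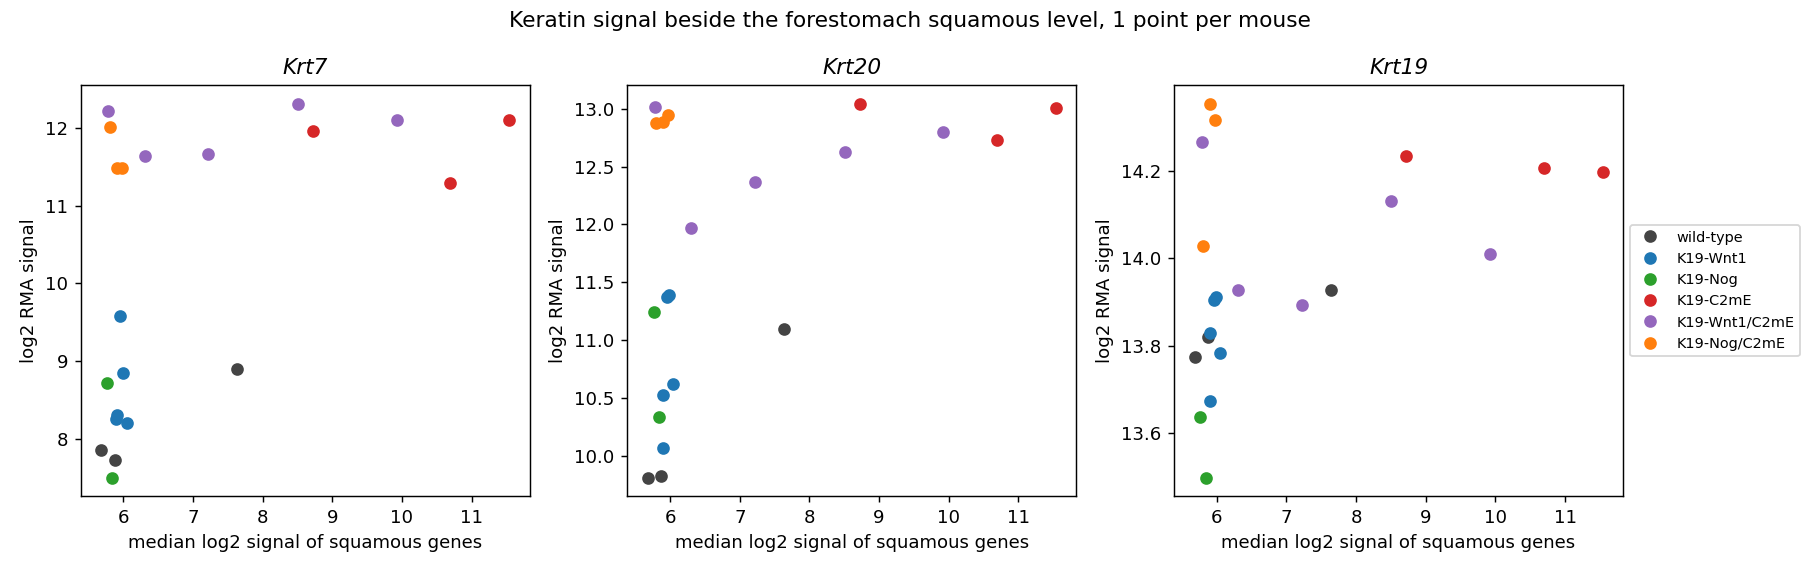
Signal of Krt7, Krt20 and Krt19 (log2 RMA signal, y axis) against the median log2 signal of 13 squamous genes (x axis), 1 point per mouse, coloured by genotype. K19-Nog/C2mE mice have squamous levels from 5.80 to 5.98 and high Krt7 and Krt20, whereas K19-C2mE mice have squamous levels from 8.72 to 11.54.

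The keratins of stratified epithelia showed another order of genotypes. All 11 rose in K19-C2mE (median 4.65 on the log2 scale), 5 of 11 in K19-Wnt1/C2mE (median 2.06) and 0 of 11 in K19-Nog/C2mE (median -0.60). In these comparisons 14.3%, 20.5% and 15.6% of named genes rose. Krt14, the basal-layer partner of Krt5, rose by 5.91 (SE 0.84) in K19-C2mE and 3.30 (SE 0.75) in K19-Wnt1/C2mE and measured -0.85 (SE 0.84, limma adjusted p = 0.488) in K19-Nog/C2mE. Krt13, of the layers above, had values of 5.70, 2.84 and -0.17 (adjusted p = 0.939) in the same order, and Krt6a, which is induced in stressed and growing squamous epithelium, 5.96, 3.29 and -0.60 (adjusted p = 0.721). The simple keratins Krt7 and Krt20 changed by 2.31 to 3.82 in the 3 genotypes, and no test of the difference between the 2 keratin groups was made.

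**Figure D4:**
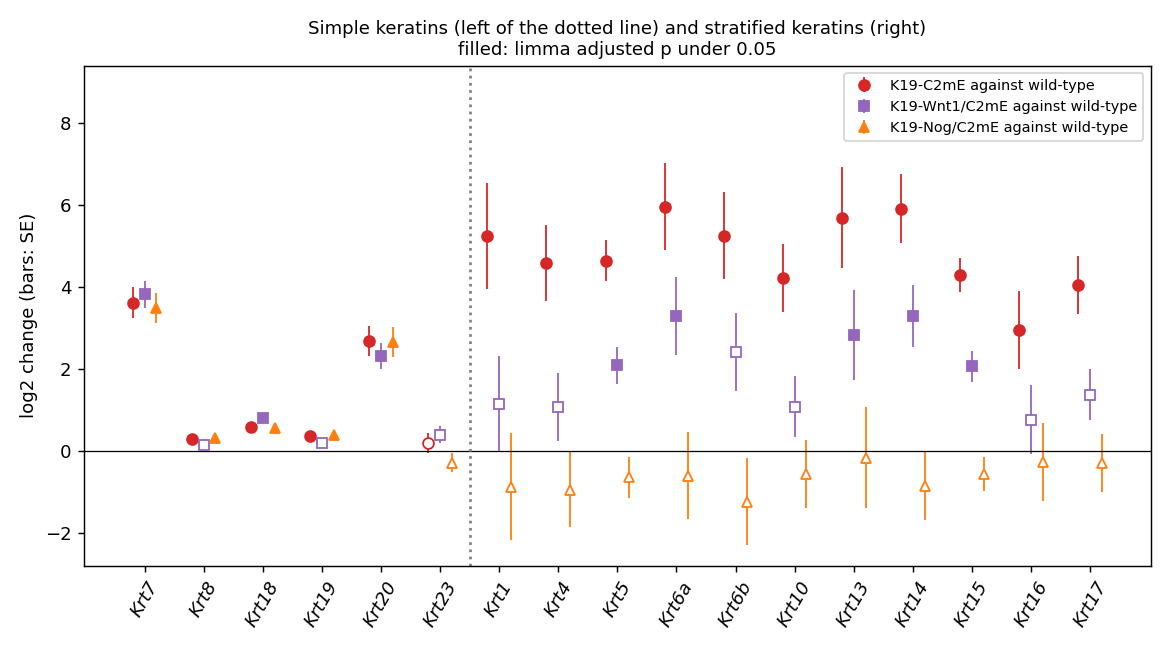
Change over wild-type (log2, y axis, bars are SE) of the 6 simple keratins (left of the dotted line) and 11 stratified keratins (right) in the 3 genotypes with C2mE; filled symbols passed the test. Krt7 and Krt20 are filled in all 3 genotypes, and no stratified keratin is filled in K19-Nog/C2mE.

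Over all 42 other keratin genes on the array, the 11 stratified ones included, 14 were higher and 2 lower than wild-type in K19-C2mE, 6 and 7 were so in K19-Wnt1/C2mE, and K19-Nog/C2mE had 2 and 5, with medians of 0.10, -0.04 and -0.14. Among all named genes 14.3%, 20.5% and 15.6% were higher and 12.6%, 21.7% and 16.2% lower, so the counts in the compound genotypes were not above the background in the rising direction. Krt12, known as a corneal keratin, was higher in all 3 (1.21, 1.01 and 1.57), and the other riser in K19-Nog/C2mE was Krt79 (1.25). A rise in every C2mE genotype was thus found for Krt7, Krt18 and Krt20 among the simple keratins.

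Other epithelial genes moved with the simple keratins. Of 15 genes of simple epithelia that are not keratins, 10 rose in K19-C2mE, 10 in K19-Wnt1/C2mE and 9 in K19-Nog/C2mE, with none falling and medians of 0.47, 0.38 and 0.33. Among named genes 14.3%, 20.5% and 15.6% rose and 12.6%, 21.7% and 16.2% fell in that order. The tight junction gene Cldn7 rose by 4.19, 5.52 and 3.59 and the adhesion gene Epcam by 1.76, 2.39 and 1.61, both well beyond their SE of at most 0.46. Spint1, an inhibitor of epithelial serine proteases, rose by 0.93, 0.78 and 0.80. The median level of the 15 genes was 10.01 to 10.12 in wild-type, 10.48 to 10.74 in K19-C2mE, 10.50 to 10.74 in K19-Wnt1/C2mE, 10.46 to 10.48 in K19-Nog/C2mE and 9.75 to 9.85 in K19-Nog. All arrays with C2mE lay above all wild-type arrays in this level, so a fit with it as a covariate cannot tell it apart from genotype. With that level as a covariate Krt7, Krt18 and Krt20 passed in all 3 genotypes against wild-type (Krt7 4.44, 4.67 and 4.09), whereas Krt8 passed in none and Krt19 passed only in K19-Nog/C2mE (0.58, SE 0.16, adjusted p = 0.0348). The fitted changes of this pair were no smaller there but had larger errors: in K19-C2mE mice Krt8 measured 0.34 (SE 0.15, adjusted p = 0.292) and Krt19 0.62 (SE 0.21, adjusted p = 0.129), and in K19-Nog/C2mE mice Krt8 measured 0.37 (SE 0.12, adjusted p = 0.0688).

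Transcripts of the proteins that tie keratin filaments to desmosomes rose in part. Of 13 desmosome and plakin genes, 7 rose in each C2mE genotype and none fell, with medians of 0.60, 0.26 and 0.36. The shares of named genes were 14.3%, 20.5% and 15.6% rising and 12.6%, 21.7% and 16.2% falling. Plakophilin 3 (Pkp3), a desmosomal plaque protein, rose by 1.10, 1.01 and 0.83, and Fam83h, which binds keratin filaments, by 0.70, 0.95 and 0.81. Epiplakin (Eppk1), a keratin-bundling plakin, rose by 0.78, 0.97 and 0.36. Periplakin (Ppl), a plakin of the squamous cell envelope, rose by 1.79 in K19-C2mE and 0.82 in K19-Wnt1/C2mE and measured 0.18 (SE 0.32, limma adjusted p = 0.726) in K19-Nog/C2mE.

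Intermediate filament genes other than keratins went in both directions: of 11, 3 were higher and 2 lower in K19-C2mE, 5 and 3 were so in K19-Wnt1/C2mE, and K19-Nog/C2mE had 3 of each. With 11 genes these counts stand beside 14.3%, 20.5% and 15.6% of named genes that rose and 12.6%, 21.7% and 16.2% that fell. Lamin A/C (Lmna), of the nuclear envelope, rose in all 3, by 1.33 in K19-Wnt1/C2mE and 0.53 in K19-Nog/C2mE. In the order K19-C2mE, Wnt1 with C2mE and Nog with C2mE, synemin (Synm), a filament protein of muscle, fell by 1.09, 1.77 and 1.83, and Nefm, a neurofilament, fell by 1.16, 1.16 and 1.13. Nefl rose by 1.42 in K19-Wnt1/C2mE and measured -0.03 (adjusted p = 0.969) in K19-C2mE and 0.18 (adjusted p = 0.794) in K19-Nog/C2mE. Signals of Nefm and Nefl were low, with wild-type means of 4.62 and 3.83, and Nefl had an SD of 1.02 in K19-Wnt1/C2mE.

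Markers of the cells around the epithelium also differed. The median level of 9 smooth muscle genes was 8.88 to 9.64 in wild-type, 11.73 to 12.26 in K19-Nog, where all 9 rose, and 7.92 to 8.67 in K19-Nog/C2mE, where 5 of 9 fell against wild-type (16.2% of named genes). It was 8.04 to 9.22 in K19-Wnt1/C2mE, where 8 of 9 fell (21.7%), and 8.49 to 8.95 in K19-C2mE, where 2 of 9 fell (12.6%). K19-Nog, which had the lowest Krt19, also had the fat cell hormone Adipoq at 7.52 and 10.76 against 3.49 to 3.64 in wild-type mice (1 of 3 fat genes higher), and 2 of the 15 genes of simple epithelia were lower there. Among named genes, 3.87% passed in K19-Nog in either direction. The part of smooth muscle, fat and epithelium in that Krt19 level was not tested. With the smooth muscle level as a covariate, none of the 5 keratin calls in K19-Nog/C2mE against K19-Nog passed (Krt7 2.94, SE 1.13, limma adjusted p = 0.283), while the calls of both C2mE genotypes with n = 3 against wild-type all passed. Smooth muscle levels of K19-Nog and K19-Nog/C2mE do not overlap, so this level and C2mE cannot be told apart there. Mesothelium lines the outer stomach wall and uses simple keratins. Of 6 mesothelial genes, 1 rose (Upk1b) and 1 fell (Gpm6a) in each C2mE genotype against wild-type. Upk1b changed by 1.71 in K19-C2mE, 2.33 with Wnt1 added and 2.23 with Nog added. Gpm6a changed by -4.07, -6.11 and -5.46 in that order. Among named genes 14.3%, 20.5% and 15.6% rose and 12.6%, 21.7% and 16.2% fell. Msln, Upk3b and Wt1 lay between 4.2 and 6.18 in all arrays, and none of these 3 passed the test in any C2mE genotype.

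Markers of the gastric cell types of the labelled tissue shifted in part. The median level of 3 chief cell genes was 14.78 to 14.81 in wild-type and 10.90 to 13.75 in K19-C2mE. It was 6.31 to 13.66 in K19-Wnt1/C2mE and 4.97 to 8.95 in K19-Nog/C2mE. All 3 were lower than wild-type in these compound genotypes (21.7% and 16.2% of named genes were), and 0 of 3 passed in K19-C2mE. The median level of 4 foveolar (surface mucous) genes was 14.74 to 15.11 in all arrays, a median that rests on Gkn1, Gkn2 and Tff1 near the top of the scale. Of the 4, 2 were lower than wild-type in K19-Wnt1/C2mE, where 21.7% of named genes were. These were the surface mucin Muc5ac, with a mean of 13.73 in wild-type and 9.22 in K19-Wnt1/C2mE (change -4.50, SE 0.87, limma adjusted p = 0.000435), and Gkn1 (-0.19, adjusted p = 0.024). Muc5ac had a mean of 11.37 in K19-Nog/C2mE (-2.36, SE 0.97, adjusted p = 0.0759). The median level of 5 parietal genes was 11.40 to 11.61 in wild-type and 6.26 to 10.34 in the mice with C2mE. Of the 5, 3 fell in K19-C2mE (12.6% of named genes), 5 in K19-Wnt1/C2mE (21.7%) and 5 in K19-Nog/C2mE (16.2%). For 4 mucous neck and metaplasia genes (Tff2, Wfdc2, Dmbt1 and Cftr) the median level was 8.54 to 8.99 in wild-type and 12.74 to 13.68 in the mice with C2mE. All 4 rose in each C2mE genotype, where 14.3%, 20.5% and 15.6% of named genes rose. K19-Nog mouse 2 had a mucous neck level of 10.71 against 8.37 in mouse 1, and it was also the mouse with the higher Krt7 (8.72 against 7.51) and Krt20 (11.24 against 10.33). The part of these cell types in the keratin changes was not tested.

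The keratins can be compared by their pattern over the 21 arrays, which share genotypes, so correlations are descriptions with no test. Pearson's r was 0.96 between Krt7 and Krt18, 0.958 between Krt7 and Krt20 and 0.905 between Krt8 and Krt19, but 0.65 between Krt8 and its filament partner Krt18. Krt23 correlated with the others at 0.0373 to 0.421. Within genotypes, after each genotype's mean was taken off, Krt7 and Krt20 still had an r of 0.845, Krt8 and Krt19 0.625, and Krt7 and Krt8 0.00102.

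The named genes whose signal was most like each keratin over the 21 arrays were found in the same way. Nearest to Krt7 were Serpinb5 (0.985), which encodes maspin, Gch1 (0.981) and Anxa2 (0.981), and nearest to Krt20 were Anxa2 (0.975), S100a6 (0.973) and Serpinb5 (0.971), so that the pair shared Anxa2 and Serpinb5. Krt18 was nearest to Kcnk1 (0.982), Ctsz (0.977) and Epcam (0.977). Krt8 was nearest to the actin-branching subunits Arpc2 (0.943) and Actr3 (0.942) and to the gap junction gene Gjb1 (0.923), and Krt19 to Sri (0.95), Gjb1 (0.95) and Gss (0.948). Krt23 had Sqstm1 (0.92), an autophagy receptor, as its nearest gene, followed by Mak (0.848) and Cd276 (0.846).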

How the data were processed

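Total RNA of 21 glandular stomachs was hybridised to Affymetrix whole-genome mouse arrays. The authors normalized the arrays with RMA (Affymetrix Power Tools in Rosetta Resolver, version not given in the sources used here) and deposited the intensity of each probe set on a linear scale. A further table deposited by the authors holds log10 values of the ratio of each intensity to the wild-type mean, limited to 2 either way. Depth has no meaning for arrays, and precision is limited by the 2 to 5 mice per genotype. No further per-sample columns were left out (0).

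Here log2 of the intensities was fitted in R 4.3.3 with limma 3.58.1 (tables read by data.table version 1.17.8), with 1 coefficient per genotype over all 21 arrays and no filter, in 12 comparisons. P-values were adjusted by Benjamini-Hochberg over all 45037 probe sets of a comparison. Plots used matplotlib 3.10.9 under Python 3.11.15, with pandas 2.3.3 and numpy 2.4.6. The fit was tested on simulated data. Probe sets were named from the array's annotation (0 symbols needed an update by Entrez ID): 34945 have 1 gene, 932 several and 9160 none, and the brightest probe set stands for each of 18193 genes. Promoters are from RefSeq (GRCm38.p6).

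Named genes are the 6 keratins, the 3 genes with the highest Pearson r to each, up to 4 members of each list with the largest change in a comparison with C2mE, and the transgene genes; Krt79, Upk1b, Gpm6a, Ivl and Ly6d were named after their values were seen where a count was small. The keratins, lists and tests were chosen with earlier results of these data known. The list of 42 other keratins (by symbol) and the alternatives that leave out arrays with a squamous level above 8 or use the smooth muscle level as a covariate were added after the values were seen. Alternatives were the mean of a gene's probe sets, a fit of only the genotypes in question, a block for the replicate number, centred array medians, omission of dim probe sets (mean signal below the 50% point), limma's variance trend with its robust option, the ratios in place of intensities, p adjusted over named genes, an added 2-fold rule, the methods' t-test, the Y-linked, squamous and simple epithelium levels as covariates, omission of arrays with high Y-linked signal, and omission of each mouse. The other gastric, intestinal, pancreatic, fat, endothelial and leukocyte lists served as checks of the tissue.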

Additional observations from a re-analysis of the deposited data

Results flagged for a closer look

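In the K19-Wnt1 mice, mouse 2 stood apart in Krt23: its log2 signal was 10.69, while the other 4 lay between 10.26 and 10.36, and the gap to its neighbour was 0.768 of the whole range of the 5 mice, above the critical value of Dixon's test for 5 samples. Genotypes of 5 mice were the only ones large enough for this check, which covered 12 sets of values, and chance alone gives such a gap in about 1 in 20 sets. The K19-Wnt1 change of Krt23 over wild-type was 0.08 (SE 0.21) with that mouse and 0.01 without it, and neither passed the limma test.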

How the results depend on the processing

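Of 1752 values of single keratins under alternatives, 1660 kept their side of the threshold, and no called value changed sign. Among these 1660 are 57 values that were called in neither fit and did change sign. The count of keratins called kept within 1.5 times of its reported value under centred array medians, the ratio table and p adjusted over named genes. K19-Wnt1/C2mE against K19-Nog/C2mE was the least stable comparison, with 1 keratin called: 0 with only the genotypes compared, with a 2-fold change as well, with the methods' t-test after Benjamini-Hochberg, without arrays of high Y-linked signal, with the squamous covariate and without arrays of a squamous level above 8, 2 with the mean of the probe sets, with the methods' t-test unadjusted and with the simple epithelium or smooth muscle covariate, and 3 without dim probe sets or with a variance trend. The 2-fold rule left 2 keratins, Krt7 and Krt20, in K19-C2mE and K19-Nog/C2mE over wild-type, K19-Wnt1/C2mE against K19-Wnt1 and K19-Nog/C2mE against K19-Nog. The methods' t-test without adjustment called 1 in K19-Wnt1 and 2 in K19-Nog against wild-type, with 2 in K19-Wnt1/C2mE and 1 in K19-Nog/C2mE against K19-C2mE; after adjustment it called 3 in K19-Nog/C2mE against wild-type and 0 against K19-Nog. Without arrays of high Y-linked signal the counts over wild-type were 0 for K19-C2mE and 3 for K19-Nog/C2mE. With the simple epithelium covariate K19-C2mE kept a count of 3 over wild-type and K19-Nog/C2mE 3 over K19-Nog, where the smooth muscle covariate left 0. The cause of these shifts was not tested, other than that fewer arrays enter some fits. K19-C2mE has no value without arrays of a squamous level above 8, since all its arrays lie above it.

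With each mouse left out in turn, counts against wild-type ran from 4 to 5 for K19-C2mE and 3 to 4 for K19-Wnt1/C2mE, and others from 3 to 5 in K19-Wnt1/C2mE against K19-Wnt1 and 0 to 2 in K19-Wnt1/C2mE against K19-Nog/C2mE. They were 5 throughout in K19-Nog/C2mE against wild-type and against K19-Nog, and 0 throughout in the others. In the check of the replicate numbers, 9 of 38 same-numbered pairs of arrays had deviations correlated above 0.1 (median 0.0156, range -0.348 to 0.183). The median of differently numbered pairs was -0.00711, and 4 of 21 arrays correlated best with their own number. This check cannot show whether some mice with the same number shared a batch or litter. With the replicate number as a block, 5 keratins instead of 3 were called in K19-Wnt1/C2mE against wild-type (Krt19 0.27, adjusted p = 0.0338, and Krt23 0.64, adjusted p = 0.0129, were added), 2 in K19-Wnt1/C2mE against K19-Nog/C2mE (Krt18 0.31, adjusted p = 0.0115, was added), and Krt19 in K19-Wnt1/C2mE against K19-Wnt1 was lost (adjusted p = 0.0809). With 2 to 5 mice per genotype, some of the small changes of the bright keratins Krt8 and Krt19 lay close to the threshold. In K19-Wnt1/C2mE against wild-type the limma adjusted p was 0.0812 and 0.0904. In K19-Nog/C2mE against wild-type it was lower (0.00236 and 0.00737), and no mouse left out removed these calls.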
